A study of Mus musculus with 8 samples.

Results

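The glucocorticoid receptor gene Nr3c1 and 5 genes that the receptor induces in T cells, Tsc22d3, Fkbp5, Sgk1, Ddit4 and Errfi1, were followed in regulatory T cells (Treg) of mouse bone marrow and spleen. These 6 genes were chosen by symbol from the 38215 genes listed, and all 6 were expressed highly enough to be tested. RNA of FACS-isolated Treg was sequenced from bone marrow (BM-Treg, 4 libraries) and spleen (SP-Treg, 4 libraries), and the question was how the transcriptome of Treg differed between these tissues. All mice were naive, 12 weeks old and, by the labels, of C57Bl/6 genotype. According to the methods of the study they carried the FoxP3-GFP reporter in both tissues, so no group differed from the other by an allele or a treatment. BM-Treg replicates 1 to 3 were labelled batch 1 and female, whereas BM-Treg replicate 4 together with the 4 SP-Treg libraries was labelled batch 3 and male. Batch and sex therefore cannot be told apart from each other, and BM-Treg replicate 4 was the only marrow library that could be compared with spleen within a batch. A fit with batch as a term thus compares BM-Treg replicate 4 with the 4 SP-Treg libraries. Calls kept or lost in that fit rest on this marrow library. The methods of the study name female mice unless otherwise indicated, so the male labels differ from that general statement, and the labels were followed here. The labels do not tie libraries to separate animals, so the p-values measure the spread between these libraries. The time of day at which tissues were taken is not given in the sources used here.

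Glucocorticoids are adrenal hormones that enter the cell and bind the glucocorticoid receptor, which is held ready in the cytosol by heat shock protein 90 and its co-chaperones. The hormone-bound receptor moves to the nucleus, binds palindromic DNA elements and turns on genes that restrain inflammatory signalling, growth and survival, while cytokine genes are turned down. In T cells Tsc22d3, which encodes the glucocorticoid-induced leucine zipper GILZ, is a classical target, and Treg both respond to glucocorticoids and need the receptor for part of their suppressive function.

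Depth ranged from 12427136 to 21921252 expected counts per library, and no pair of libraries was a duplicate. SP-Treg replicate 1 stood farthest from the other spleen libraries, so results that rest on it are also given without it. The Treg label was checked with Foxp3, Il2ra, Ctla4, Cd4, Cd3e and Ikzf2, which summed to 7221 to 8574 CPM (counts scaled to a common library total) in BM-Treg and 7927 to 8746 CPM in SP-Treg. None of these 6 genes passed the test between tissues. Markers of other cells were low beside this, but erythroid markers ranged from 12.6 to 32.5 CPM in marrow and from 1.76 to 454 CPM in SP-Treg, and B cell markers from 3.35 to 5.62 CPM and from 3.67 to 87.7 CPM. No listed marker was at 0 in all libraries, and the part of these cells in the results below was not tested.

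Of the 6 genes, Tsc22d3 and Sgk1 were upregulated in BM-Treg, 1.76-fold and 1.87-fold. Nr3c1, Fkbp5, Ddit4 and Errfi1 did not pass the test, and their libraries overlapped between tissues. Genes were called by edgeR's quasi-likelihood test at an adjusted p of 0.05, with adjustment over all 13397 genes tested. Under that rule 8.75% of all genes tested were called, 3.72% of them upward in BM-Treg. For 2 of the 6 genes the BM-Treg and SP-Treg libraries did not overlap in CPM, beside 16.2% of all genes tested (7.61% with BM-Treg higher and 8.55% with SP-Treg higher). In bulk RNA, a larger share of cells that express a gene and more of its RNA per cell cannot be told apart.

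**Figure D1:**
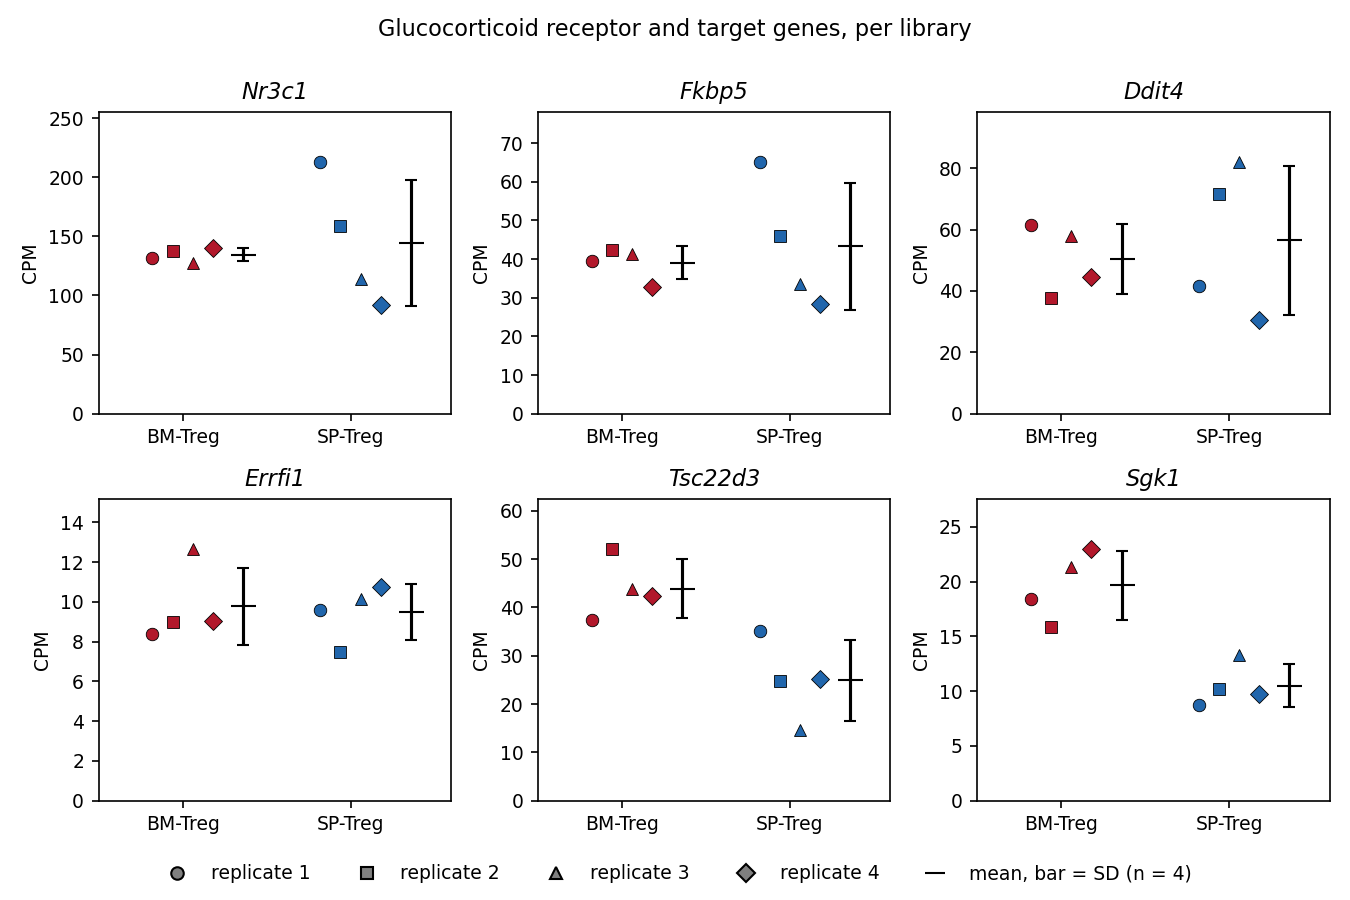
Expression of the receptor gene and 5 target genes in CPM (vertical axes, each starting at 0) in the 4 BM-Treg (red) and 4 SP-Treg (blue) libraries, with a marker shape per replicate number and the mean and SD beside the points. Tsc22d3 and Sgk1 were higher in all 4 BM-Treg libraries than in any SP-Treg library, whereas Nr3c1 and Fkbp5 ran in the same order across the 4 SP-Treg libraries.

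The receptor gene Nr3c1 did not differ between tissues beyond the spread of its libraries. It stood at 132, 137, 128 and 140 CPM in BM-Treg replicates 1 to 4 and at 213, 159, 114 and 92.2 CPM in SP-Treg replicates 1 to 4. The marrow libraries lay within a narrow band, and the spleen libraries spread above and below it. The means were 134 ± 5.56 CPM in marrow and 145 ± 53.4 CPM in spleen (mean and SD of 4 libraries). The log2 fold change of BM-Treg over SP-Treg was -0.11 (SE 0.22, 95% interval -0.60 to 0.39), with an edgeR adjusted p of 0.819. Without SP-Treg replicate 1 it was 0.16 (edgeR adjusted p = 0.607). Among its transcripts, the coding transcript ENSMUST00000115571 took 88.2% ± 7.32 of the Nr3c1 counts in BM-Treg and 93.8% ± 3.43 in SP-Treg.

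Fkbp5 encodes FKBP51, a co-chaperone that lowers the hormone affinity of the receptor and so forms a negative feedback loop. It stood at 39.5, 42.4, 41.2 and 32.9 CPM in BM-Treg replicates 1 to 4 and at 65.2, 46.0, 33.6 and 28.4 CPM in SP-Treg replicates 1 to 4. The spleen libraries again bracketed the marrow libraries, in the same order as for Nr3c1. The log2 fold change was -0.15 (SE 0.22, 95% interval -0.64 to 0.34), with an edgeR adjusted p of 0.743, and it was 0.14 without SP-Treg replicate 1 (edgeR adjusted p = 0.69). Over the 8 libraries the log2 CPM of Fkbp5 and Nr3c1 had a Pearson r of 0.92, and their deviations from the tissue means had an r of 0.93. These points share library, depth and batch, and the correlation is a description.

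Ddit4 and Errfi1 encode brakes on growth signals. REDD1, the Ddit4 product, inhibits mTORC1, and MIG6, the Errfi1 product, inhibits the EGF receptor family. Ddit4 stood at 61.6, 37.6, 58.0 and 44.4 CPM in BM-Treg replicates 1 to 4 and at 41.6, 71.5, 82.0 and 30.6 CPM in SP-Treg replicates 1 to 4. Both the highest and the lowest of these libraries were from spleen. Its log2 fold change was -0.16 (SE 0.31, 95% interval -0.88 to 0.56), with an edgeR adjusted p of 0.809. Errfi1, also the lowest of the 6 genes per kilobase, had 8.39, 9.00, 12.7 and 9.03 CPM in marrow and 9.57, 7.50, 10.1 and 10.7 CPM in SP-Treg. The tissues overlapped throughout, and BM-Treg replicate 3 alone lay apart from its group. The Errfi1 log2 fold change was 0.05 (SE 0.19, 95% interval -0.36 to 0.46), with an edgeR adjusted p of 0.915. These intervals do not reach a 2-fold change in either direction for Nr3c1, Fkbp5, Ddit4 or Errfi1.

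Tsc22d3 (chromosome X, 140539528 to 140600659, minus strand, GRCm38) lies on the X chromosome, and the labelled sex differed between BM-Treg replicates 1 to 3 and the other libraries. It stood at 37.4, 52.1, 43.7 and 42.3 CPM in BM-Treg replicates 1 to 4 and at 35.2, 24.7, 14.6 and 25.3 CPM in SP-Treg replicates 1 to 4. All marrow libraries were above all spleen libraries, with a narrow gap between BM-Treg replicate 1 and SP-Treg replicate 1. The log2 fold change was 0.81 (SE 0.21, 95% interval 0.35 to 1.28), with an edgeR adjusted p of 0.0366. Within batch 3, where all libraries were labelled male, BM-Treg replicate 4 was above the SP-Treg mean by 0.78 on the log2 scale, with no test. With batch as a term the log2 fold change was 0.76 and the call was lost (edgeR adjusted p = 0.284). The call was also lost when any of BM-Treg replicates 2, 3 or 4 or SP-Treg replicates 2 or 4 was left out, with log2 fold changes of 0.72 to 0.83, and it was kept without SP-Treg replicate 1 (log2 fold change 1.04, edgeR adjusted p = 0.00597). Per kilobase the gene totals of the tissues overlapped, since BM-Treg replicate 1 had 18.9 FPKM and SP-Treg replicate 1 had 20.8 FPKM. Of the latter, 9.98 FPKM belonged to the noncoding transcript ENSMUST00000112995 described below.

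Most Tsc22d3 reads were assigned to a short transcript that codes for GILZ, ENSMUST00000055738 (X, 140539528 to 140543187), and to an intron-containing transcript of the same region, ENSMUST00000133023 (X, 140539537 to 140543101). GENCODE M21 lists 6 transcripts of the gene and types the latter as a retained intron. It keeps the intron between exons 2 and 3 of the GILZ transcript, which spans X, 140541108 to 140542104, is 997 bases long and separates coding exons. The ends of that intron are shown because they are what tells both transcripts apart, with exon in capitals, intron in lower case, 5′ to 3′ on the transcript strand, from the GRCm38 transcripts and genome annotation:
Spliced junction in the GILZ transcript: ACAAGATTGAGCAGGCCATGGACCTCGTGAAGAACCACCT
Exon 2 into the intron, in the retained-intron transcript: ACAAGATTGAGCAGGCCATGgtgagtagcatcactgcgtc
The intron into exon 3, in the retained-intron transcript: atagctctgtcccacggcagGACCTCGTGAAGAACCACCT
The intron began with gt and ended with ag, the usual letters of a splice donor and acceptor.

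The intron-containing transcript was estimated higher in every BM-Treg library than in any SP-Treg library. It had 229, 272, 208 and 136 expected counts in BM-Treg replicates 1 to 4 and 16.6, 32.1, 48.2 and 30.2 in SP-Treg replicates 1 to 4. In CPM these were 12.2, 12.6, 9.52 and 11.4 in BM-Treg and 1.22, 2.61, 3.96 and 2.21 in SP-Treg, so the lowest marrow library was more than 2 times the highest spleen library. The log2 fold change was 2.19 (SE 0.34, 95% interval 1.41 to 2.98), a 4.58-fold difference, with an edgeR adjusted p of 0.0592 over 28756 transcripts tested. It did not pass the threshold of 0.05, under which 0.146% of transcripts were called, 0.0626% higher and 0.0835% lower in BM-Treg. By limma-voom, which weights counts by their precision, the log2 fold change was 2.30 and passed (limma adjusted p = 0.0376). Sorted by unadjusted p it ranked 72 among all transcripts tested and 9 among the 5752 tested transcripts typed as retained introns.

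The spliced GILZ transcript stood at 22.8, 38.9, 35.8 and 30.9 CPM in marrow and 18.5, 20.9, 9.32 and 22.4 CPM in SP-Treg. The tissues did not overlap, but BM-Treg replicate 1 and SP-Treg replicate 4 nearly touched. Per kilobase this transcript had 12.8, 21.5, 18.8 and 15.6 FPKM in BM-Treg replicates 1 to 4. In SP-Treg replicates 1 to 4 it had 10.2, 10.2, 4.62 and 11.45 FPKM, also without overlap. Its log2 fold change was 0.85 (SE 0.29, 95% interval 0.20 to 1.51), with an edgeR adjusted p of 0.274. As a share of Tsc22d3 counts, the retained-intron transcript took 33.5%, 24.2%, 20.9% and 26.8% in BM-Treg replicates 1 to 4 and 3.39%, 10.4%, 27.7% and 8.79% in SP-Treg replicates 1 to 4. SP-Treg replicate 3, which had the lowest Tsc22d3 total, lay among the marrow libraries, and the other spleen libraries lay below them. The mean share was 26.4% ± 5.35 in BM-Treg and 12.6% ± 10.5 in SP-Treg, a difference of 13.8 percentage points that did not pass an exact two-sided permutation test (p = 0.114, adjusted over 3 transcripts 0.171; the smallest p possible was 0.0286). The share of the GILZ transcript was 72.0% ± 6.82 in BM-Treg and 72.0% ± 17.3 in SP-Treg. SP-Treg replicate 1 had the lowest share, 51.2%, and SP-Treg replicate 4 the highest, 89.2%. With a library left out, the BM-Treg minus SP-Treg difference ranged from -6.96 (without SP-Treg replicate 1) to 5.71 percentage points. Another transcript, ENSMUST00000112995, typed by GENCODE as processed and noncoding, held 45.2% of the Tsc22d3 counts in SP-Treg replicate 1 and at most 6.55% in any other library.

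**Figure D2:**
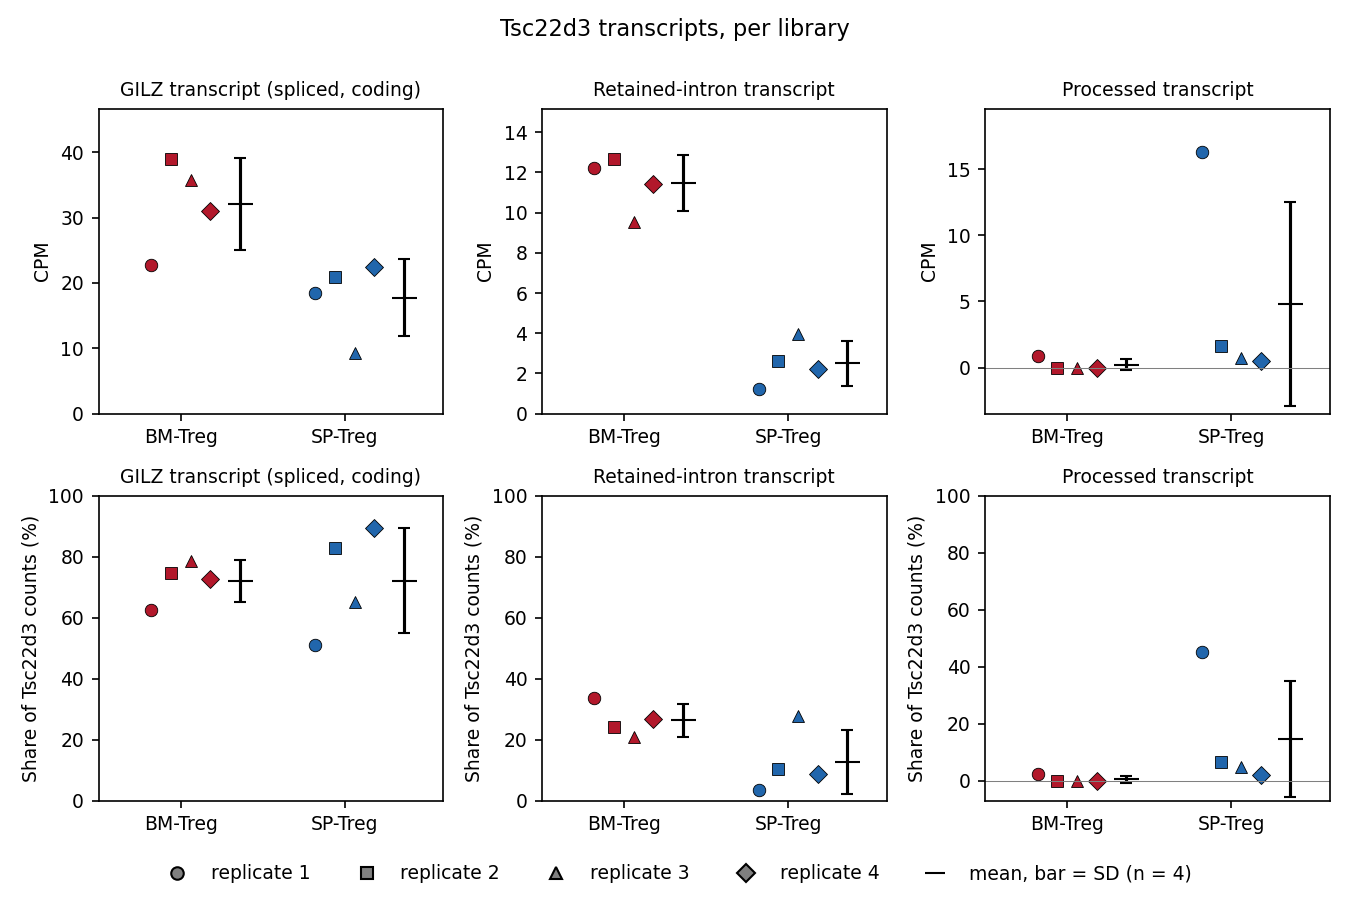
CPM (top row) and share of all Tsc22d3 counts in percent (bottom row) of 3 Tsc22d3 transcripts in each BM-Treg (red) and SP-Treg (blue) library, with the mean and SD (n = 4), whose bars can reach below 0. The CPM of the retained-intron transcript separated the tissues, its share did not because of SP-Treg replicate 3, and the processed transcript was high in SP-Treg replicate 1 alone.

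The Tsc22d3 call did not hold when all transcripts typed as retained introns were left out of every gene. In that fit, an alternative chosen after the data were seen, the Tsc22d3 log2 fold change was 0.54 and did not pass (edgeR adjusted p = 0.308). Sgk1 kept its call in the same fit, with a log2 fold change of 0.74 (edgeR adjusted p = 0.0199). The Tsc22d3 counts left in that fit included the processed transcript ENSMUST00000112995. Its transcript CPM was 16.3 in SP-Treg replicate 1 and 0.22 in the mean of BM-Treg. The GILZ transcript by itself had a log2 fold change of 0.85. The part of each transcript in the lost call was not tested. Across the transcriptome, transcripts typed as retained introns held 5.01% ± 0.35 of counts in BM-Treg and 4.66% ± 0.21 in SP-Treg (SD, n = 4 each; exact two-sided permutation p = 0.229). Among 5752 such transcripts tested, 3 were higher and 2 lower in BM-Treg, and their median log2 fold change was 0.07, beside 0.01 for all transcripts tested. Counts of overlapping transcripts are estimates that divide shared reads between them. The strand setting of the counting is not given in the sources used here.

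Sgk1 (chromosome 10, 21882184 to 21999903, plus strand, GRCm38) encodes a kinase close to AKT that is activated downstream of PI3K and phosphorylates FOXO factors and the ubiquitin ligase NEDD4L. It stood at 18.4, 15.9, 21.3 and 23.0 CPM in BM-Treg replicates 1 to 4 and at 8.78, 10.2, 13.3 and 9.70 CPM in SP-Treg replicates 1 to 4. All marrow libraries were above all spleen libraries, and the marrow library of batch 3 was the highest of all. The log2 fold change was 0.90 (SE 0.17, 95% interval 0.53 to 1.28), with an edgeR adjusted p of 0.00517. Within batch 3 it was 1.15, with no test, and with batch as a term it was 1.13 (edgeR adjusted p = 0.0377). Both of these values rest on BM-Treg replicate 4 on the marrow side and are not separate checks. The call held without each library in turn, with log2 fold changes of 0.82 to 1.03. The tissues also did not overlap per kilobase, with means of 27.4 ± 7.16 FPKM in BM-Treg and 11.8 ± 3.75 FPKM in SP-Treg.

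Sgk1 counts went mainly to the coding transcript ENSMUST00000020145 (10, 21994666 to 21999903), which took 57.2% ± 5.87 of them in BM-Treg and 69.2% ± 9.54 in SP-Treg. This transcript stood at 9.15, 9.76, 14 and 12.4 CPM in marrow and 7.30, 6.93, 7.62 and 6.83 CPM in SP-Treg. The tissues did not overlap, with a log2 fold change of 0.66 (SE 0.20) and an edgeR adjusted p of 0.215. Its 2 tested transcripts typed as retained introns, ENSMUST00000126560 and ENSMUST00000141218, had log2 fold changes of 1.45 and 1.30 (edgeR adjusted p = 0.44 and 0.434). Another of that type, ENSMUST00000135195, was too low to be tested, at 0.22 ± 0.14 CPM in marrow and 0.25 ± 0.20 CPM in spleen.

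The promoter windows of the members were searched for the glucocorticoid response element, written as AGAACA, any 3 bases and TGTTCT, on both strands. RefSeq promoter windows of GRCm38.p6, each from 250 bases before to 50 bases after a gene start, were used, and 13 windows matched 5 of the members. None of the 3 Tsc22d3 windows covered the start of the GILZ transcript ENSMUST00000055738, so the promoter at that start was not searched. The whole element was found in 3 of 32851 windows (0.00913%), and 1 of these was a window of Sgk1. It is shown because Sgk1 held the firmest call of the 6 genes, with the element in capitals, on the plus strand at chr10:21993641-21993775:
Sgk1 element: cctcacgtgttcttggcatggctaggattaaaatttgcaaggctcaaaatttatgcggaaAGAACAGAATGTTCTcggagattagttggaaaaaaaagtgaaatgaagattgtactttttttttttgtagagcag
The 15-base element (10, 21993701 to 21993715) lay 175 bases upstream of the start of the coding transcript ENSMUST00000092673 and 951 bases upstream of the start of the main coding transcript. The former held 2.25% of the Sgk1 counts in BM-Treg replicate 1 and was at 0 in the other 7 libraries. The 6-base arm AGAACA on either strand was in 4 of the 13 member windows and in 19% of all windows. These 4 were windows of Sgk1, among them the window with the whole element, and a window of Tsc22d3. Sgk1 had 6 of the 13 windows, so the member windows do not stand for separate genes. A match is a description of these letters and says nothing about binding in Treg.

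Compared per kilobase, the order of mean FPKM in BM-Treg was Ddit4 (32.1 ± 7.64), Sgk1 (27.4 ± 7.16), Nr3c1 (25.0 ± 1.09), Tsc22d3 (22.2 ± 3.74), Fkbp5 (11.6 ± 1.66) and Errfi1 (3.56 ± 0.77). In SP-Treg it was Ddit4 (33.8 ± 13.2), Nr3c1 (25.7 ± 10.2), Tsc22d3 (13.1 ± 5.74), Fkbp5 (12.4 ± 5.57), Sgk1 (11.8 ± 3.75) and Errfi1 (3.29 ± 0.63). Sgk1 thus ranked 2 in marrow and 5 in spleen. In BM-Treg the first 4 genes lay within the SDs of their neighbours in that order. Fkbp5 and Errfi1 lay below them by more than the SDs. In SP-Treg each gene down to Sgk1 overlapped with the next in that order, and Errfi1 lay below all others. The Sgk1 ranks rest largely on ENSMUST00000141218, typed as a retained intron. It had 17.2, 7.41, 18.9 and 24.3 FPKM in BM-Treg replicates 1 to 4. In SP-Treg replicates 1 to 4 it had 2.01, 10.7, 8.23 and 5.29 FPKM. The main coding transcript of Sgk1 had 4.1, 4.3, 5.87 and 4.97 FPKM in BM-Treg. In SP-Treg it had 3.22, 2.7, 3.01 and 2.78 FPKM, without overlap.

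Several chaperones and co-chaperones of the receptor were downregulated in BM-Treg. Of 23 genes of the receptor complex, its cofactors and the hormone-converting enzymes, 8 were lower in BM-Treg by edgeR, beside 5.02% of all genes tested. The number higher was 0 by edgeR, DESeq2, limma-voom and limma-trend on FPKM, and at an unadjusted p under 0.05 edgeR had 9 lower and 0 higher and limma-trend 8 lower and 2 higher. The median log2 fold change of the 23 genes was -0.06, beside -0.01 for all genes tested.

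Hsp90aa1 and Hsp90ab1 encode the heat shock protein 90 isoforms that keep the receptor able to bind hormone. Hsp90aa1 stood at 234, 268, 274 and 334 CPM in BM-Treg replicates 1 to 4 and at 1019, 1021, 601 and 497 CPM in SP-Treg replicates 1 to 4. All spleen libraries were above all marrow libraries, and SP-Treg replicates 1 and 2 were the highest. The log2 fold change was -1.50 (SE 0.24), with an edgeR adjusted p of 0.00484. Hsp90ab1 was lower in marrow, at 1140 ± 270 CPM, than in spleen, at 2505 ± 790 CPM (edgeR adjusted p = 0.0149). Hspa8 and Hspa4, HSP70-family chaperones, fell by 0.85 and 0.55 on the log2 scale (edgeR adjusted p = 0.00271 and 0.00796). The HSP70-interacting St13 (log2 fold change -1.30) and the HSP70-HSP90 adaptor Stip1 (-1.35) were also lower (edgeR adjusted p = 0.00163 and 0.0366).

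Fkbp4 encodes FKBP52, the immunophilin that replaces FKBP51 on the active receptor. It stood at 63.3, 72.2, 86.8 and 103 CPM in BM-Treg replicates 1 to 4 and at 239, 215, 128 and 126 CPM in SP-Treg replicates 1 to 4. The tissues did not overlap, in contrast to its paralog Fkbp5. The Fkbp4 log2 fold change was -1.13 (SE 0.24), with an edgeR adjusted p of 0.0216. Ppid, the immunophilin cyclophilin 40, had 43.3 ± 0.68 CPM in marrow and 63.6 ± 3.71 CPM in spleen (edgeR adjusted p = 0.00332). Ptges3, the co-chaperone p23, had a log2 fold change of -0.63 that did not pass (edgeR adjusted p = 0.128). The co-chaperone Bag1 and the receptor-bound phosphatase Ppp5c, at -0.06 and 0.13, did not pass either (edgeR adjusted p = 0.859 and 0.596). The nuclear coactivators Ncoa1, Ncoa2, Ncoa3, Crebbp and Ep300 and the corepressor Ncor1 had log2 fold changes between -0.11 and 0.17 and did not pass. Hsd11b1, which regenerates active hormone, had 60.1 ± 3.07 CPM in marrow and 52.2 ± 4.14 CPM in spleen (edgeR adjusted p = 0.256).

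With batch as a term none of the 8 chaperone and co-chaperone genes passed, with edgeR adjusted p of 0.0773 for Ppid and 0.16 for Hsp90aa1. Among all genes tested, fewer were called under that term as well, with the numbers given in the last section. The direction of these 8 genes within batch 3 was the same, for example -1.22 on the log2 scale for Hsp90aa1 and -0.57 for Ppid. The batch term and batch 3 alone both rest on BM-Treg replicate 4 on the marrow side. Among fits with a library omitted, Stip1 did not pass without BM-Treg replicate 1, 2 or 3 or SP-Treg replicate 1 or 2 (-1.31 to -1.16), Fkbp4 without BM-Treg replicate 1, 2 or 3 (-1.16 to -0.996) and Hsp90ab1 without BM-Treg replicate 1 or 3 (-1.004 and -1.14). None of 5 other heat shock genes passed by edgeR. The sum of Hspa1a, Hspa1b, Dnajb1, Hsph1 and Hspb1 was 244 to 436 CPM in marrow and 1704, 1469.5, 626 and 437 CPM in SP-Treg replicates 1 to 4 (exact two-sided permutation p = 0.0286, adjusted over the 8 marker lists 0.229), and its part in these results was not tested. Hsp90aa1, Hsp90ab1 and Hspa8 have processed pseudogenes in mouse, and reads shared with these make their counts uncertain.

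**Figure D3:**
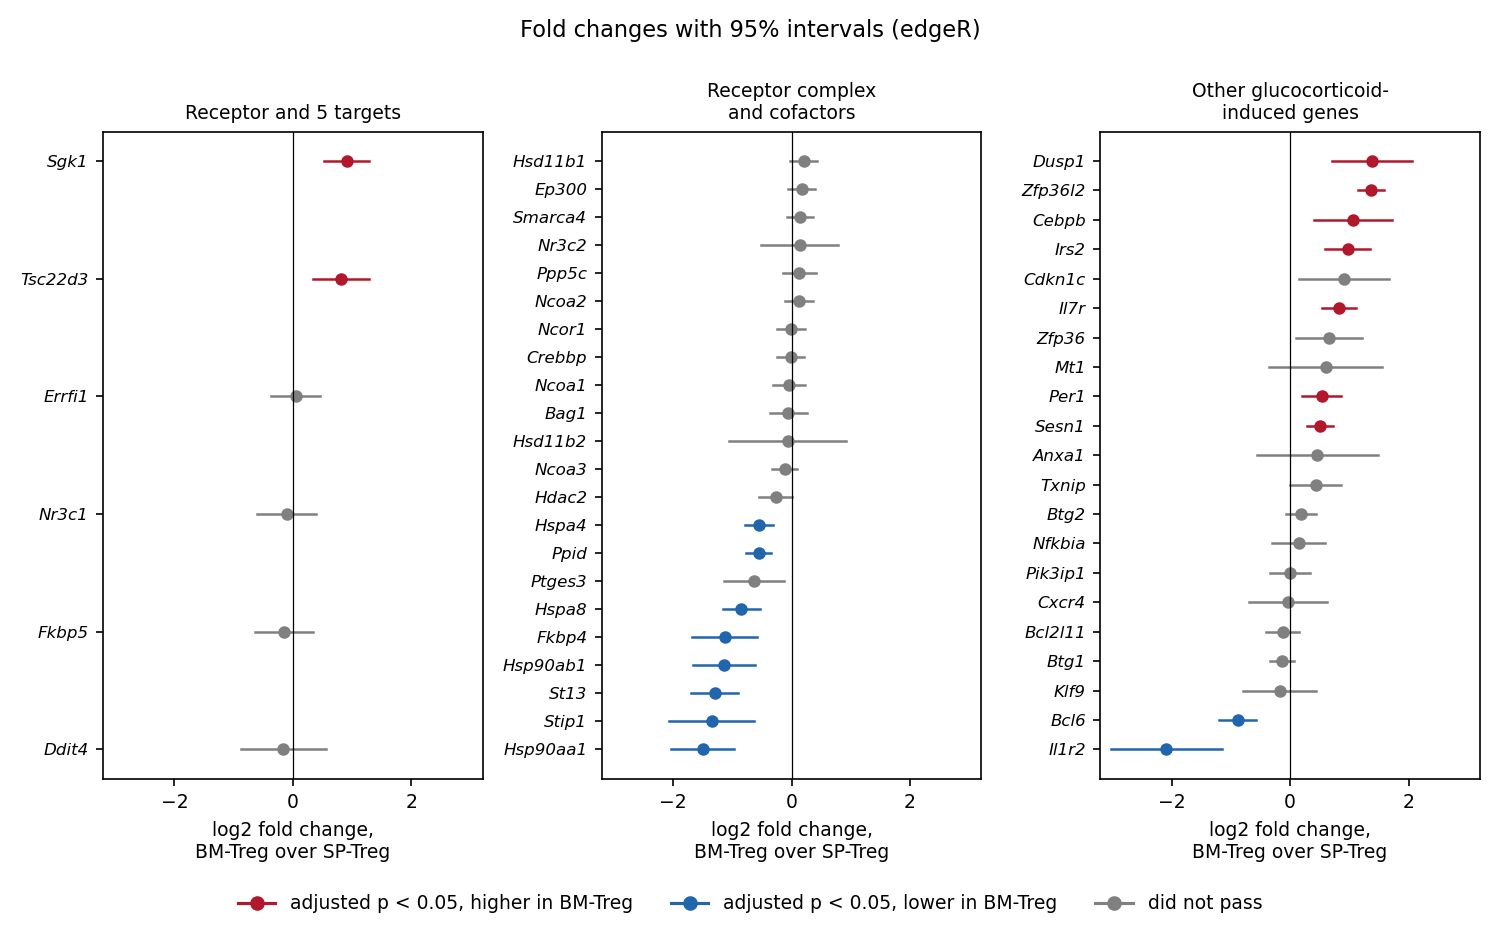
Log2 fold changes of BM-Treg over SP-Treg (horizontal axes) with 95% intervals for the 6 genes (left), genes of the receptor complex and its cofactors (middle) and other glucocorticoid-induced genes that were tested (right). In the middle panel 8 chaperone and co-chaperone genes lay to the left of 0 and passed, and among induced genes 7 passed to the right and 2 to the left.

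Other genes known to be induced by glucocorticoids moved in both directions. Of 24 listed, 21 were tested, 7 were higher and 2 lower in BM-Treg by edgeR, beside 3.72% higher and 5.02% lower among all genes tested. Their median log2 fold change was 0.46, beside -0.01 for all genes tested. Dusp1, the phosphatase that switches off MAP kinases, stood at 413, 473, 784 and 662 CPM in BM-Treg replicates 1 to 4 and at 131, 196, 306 and 260.5 CPM in SP-Treg replicates 1 to 4. No library overlapped, with a log2 fold change of 1.38 (SE 0.29) and an edgeR adjusted p of 0.0236. Without transcripts typed as retained introns the Dusp1 log2 fold change was 2.73 and did not pass (edgeR adjusted p = 0.228), and it also did not pass without BM-Treg replicate 3 or 4 or SP-Treg replicate 2 or 4, with values from 1.21 to 1.46.

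Zfp36l2, which encodes an mRNA decay factor, had the smallest p of these genes. It stood at 341, 409, 419 and 389 CPM in marrow and at 165, 137, 147 and 154 CPM in spleen. The tissues were far apart, with a log2 fold change of 1.37 (SE 0.10) and an edgeR adjusted p of 4.94e-06, and the gene also passed with batch as a term (edgeR adjusted p = 0.00186). Il7r, the interleukin-7 receptor chain, stood at 599 ± 20.3 CPM in marrow and 339 ± 71.3 CPM in spleen (edgeR adjusted p = 0.00218). Irs2, an insulin receptor substrate, had a log2 fold change of 0.97 (edgeR adjusted p = 0.00394), and Sesn1, an inhibitor of mTORC1 signalling, of 0.50 (edgeR adjusted p = 0.00881). Cebpb, a transcription factor gene, was low in both tissues, at 4.54 ± 0.86 CPM in marrow and 2.16 ± 0.78 CPM in spleen (edgeR adjusted p = 0.0444), and passed among fits with a library omitted only without SP-Treg replicate 4, with values of 0.92 to 1.15 in the other 7.

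Per1, a clock gene with glucocorticoid-responsive elements, stood at 68.9, 75.7, 102 and 114 CPM in BM-Treg replicates 1 to 4 and at 57.2, 57.8, 74.1 and 59.98 CPM in SP-Treg replicates 1 to 4. BM-Treg replicate 1 lay below SP-Treg replicate 3, so the tissues overlapped. Its log2 fold change was 0.53 (SE 0.16), with an edgeR adjusted p of 0.0486. It passed with batch as a term (0.88, edgeR adjusted p = 0.0465) and did not without BM-Treg replicate 3 or 4 or SP-Treg replicate 1, 2 or 4 (0.40 to 0.51). The listed induced genes that passed under the batch term numbered 3, namely Zfp36l2, Irs2 and Per1. Fewer of all genes tested were called under that term as well, with the numbers given in the last section. The marrow side of that fit rests on BM-Treg replicate 4, which was the highest marrow library for Per1.

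The induced genes that were lower in BM-Treg were Il1r2, the decoy receptor for interleukin-1, and Bcl6, a transcriptional repressor of follicular T cells. Il1r2 stood at 6.8, 11.1, 22.2 and 9.0 CPM in BM-Treg replicates 1 to 4 and at 63.3, 44.6, 33.7 and 70.05 CPM in SP-Treg replicates 1 to 4. All spleen libraries were above the marrow libraries (log2 fold change -2.09, SE 0.40, edgeR adjusted p = 0.0193), but Il1r2 did not pass without BM-Treg replicate 2 or 4 (-2.04 and -1.98). Bcl6 had a log2 fold change of -0.89 (edgeR adjusted p = 0.00227). The mRNA decay and antiproliferative genes Zfp36 and Btg1, the most highly counted of the list, had log2 fold changes of 0.66 and -0.13 and did not pass (edgeR adjusted p = 0.141 and 0.429). Klf9, a target shared by many tissues, had 5.39 ± 0.68 CPM in marrow and 6.06 ± 2.62 CPM in spleen (edgeR adjusted p = 0.768). Zbtb16, Cebpd and Mt2 were too low to be tested.

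Several of these induced genes also answer to activation. Of 10 immediate early genes examined, Fosb and Junb were higher in BM-Treg and Egr1 and Egr2 lower by edgeR, among 8 tested and beside 8.75% called of all genes tested. The summed level of the 10 genes was 457 to 721 CPM in marrow and 421 to 611 CPM in spleen. Its part in the values of Dusp1, Per1, Sgk1 and Tsc22d3 was not tested.

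Of 15 genes known to be repressed by glucocorticoids, mostly cytokines and chemokines, only Ifng, Tnf and Icam1 were high enough to be tested. Tnf, an inflammatory cytokine gene, stood at 10.9, 11.7, 9.9 and 15.1 CPM in marrow and at 20.6, 28.7, 28.6 and 26.8 CPM in SP-Treg. The tissues did not overlap, and Tnf was downregulated in BM-Treg with a log2 fold change of -1.14 (SE 0.17, edgeR adjusted p = 0.00108). Ifng, the interferon-gamma gene, had a log2 fold change of 0.68, and Icam1, an adhesion molecule gene, of -0.16 (edgeR adjusted p = 0.374 and 0.452). With batch as a term Tnf did not pass (-0.79, edgeR adjusted p = 0.107).

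Among paralogs of the 6 genes, Tsc22d4, a leucine zipper gene of the Tsc22d3 family, was higher in BM-Treg at 90.4 ± 6.79 CPM against 59.4 ± 8.42 CPM (log2 fold change 0.60, edgeR adjusted p = 0.00517), although it did not pass with batch as a term (edgeR adjusted p = 0.0631). Tsc22d1 and Tsc22d2 of the same family had log2 fold changes of -0.38 and 0.28 and did not pass (edgeR adjusted p = 0.0699 and 0.233). Nr3c2, the mineralocorticoid receptor gene, had 4.97 ± 1.30 CPM in marrow and 4.55 ± 1.70 CPM in SP-Treg and did not pass. Sgk3 did not pass, and Sgk2 and Ddit4l were too low to be tested.

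Genes whose products work with the 6 proteins were listed as well. Of 17 listed, 16 were tested, and by edgeR 1 was lower in BM-Treg and 0 higher, close to the 8.75% called among all genes tested. At an unadjusted p under 0.05 there were 2 lower and 4 higher, and the number called higher was 0 by DESeq2, limma-voom and limma-trend as well. The gene that passed was Nfkb1, an NF-kappaB subunit, the family to which GILZ binds, at 153 ± 4.49 CPM in marrow and 192 ± 17.8 CPM in spleen (log2 fold change -0.33, edgeR adjusted p = 0.0454). Among fits with a library omitted it passed only without SP-Treg replicate 3, with values of -0.34 to -0.25 in the other 7. Foxo1, a target of SGK1, stood at 548 ± 24.1 CPM in marrow and 523 ± 66.5 CPM in spleen (edgeR adjusted p = 0.766). Txnip, a metabolic FOXO target, had a log2 fold change of 0.43 (edgeR adjusted p = 0.214). Tsc1, Tsc2 and Mtor, downstream of REDD1, had log2 fold changes between 0.10 and 0.14 and did not pass. Rheb, the mTORC1 activator of the same arm, had 24.2 ± 2.13 CPM in marrow and 31.1 ± 3.61 CPM in spleen, without overlap, and did not pass (log2 fold change -0.37, edgeR adjusted p = 0.0912). Erbb2, of the EGF receptor family, had a log2 fold change of 0.94 and did not pass (edgeR adjusted p = 0.21).

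The genes whose pattern over the 8 libraries was most like that of each called member and of Nr3c1 were found by the Pearson r of log2 CPM over all genes tested. For Tsc22d3 these were Dcxr (r = 0.98), Smarcd1 (r = 0.98) and Polr2e (r = 0.97). For Sgk1 they were Tecr, Rexo1 and AC158642.1 (r = 0.98 each), and for Nr3c1 Mex3c (r = 0.98), Ube4b (r = 0.98) and Glg1 (r = 0.97). None of these was in the glucocorticoid lists. Tsc22d3 and Sgk1, the members called, had an r of 0.50 with each other over the 8 libraries and of -0.80 for deviations from the tissue means. All these points share depth, tissue and batch, and no test was made.

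When the processing was varied, Sgk1 passed in every tested alternative, with edgeR, DESeq2 or limma adjusted p of at most 0.0377. Tsc22d3 was higher in BM-Treg in every alternative but passed in some only. Nr3c1, Fkbp5, Ddit4 and Errfi1 passed in none, and their log2 fold changes changed sign between alternatives.

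**Figure D4:**
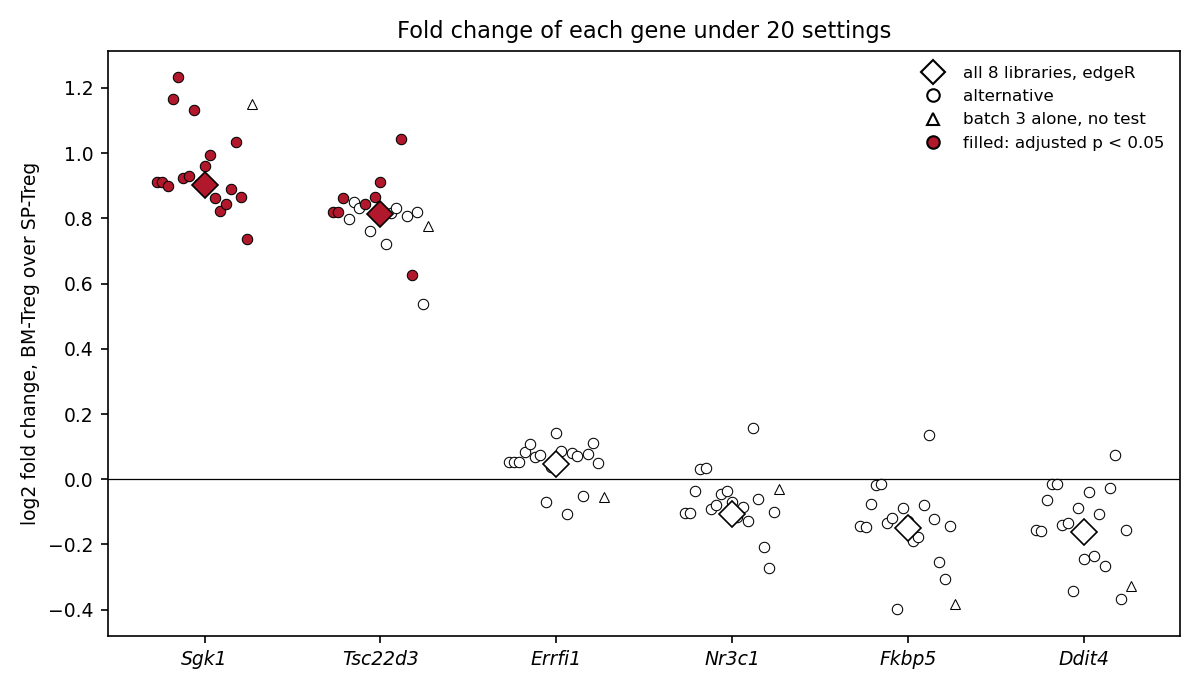
Log2 fold change of BM-Treg over SP-Treg (vertical axis) of each of the 6 genes under the 20 settings examined, with the fit to all 8 libraries as a diamond, batch 3 alone as a triangle without a test, and symbols filled where the adjusted p was under 0.05. Sgk1 was filled in all tested settings, Tsc22d3 in part of them, and the other 4 genes lay on both sides of 0.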

How the data were processed

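Treg RNA (15 ng per library) was amplified by SPIA and sequenced as single-end 80 nt reads. The authors deposited expected counts per gene and per transcript and the matching FPKM values. The submitters' processing notes name cutadapt 1.9, STAR 2.5.2a, RSEM 1.2.30 and GRCm38. From the deposited expected counts, rounded to whole numbers, BM-Treg and SP-Treg (4 libraries each, grouped by the labels) were compared with edgeR 4.0.16 (R 4.3.3; filterByExpr, TMM, robust quasi-likelihood test, no covariate, Benjamini-Hochberg over all genes or transcripts tested). CPM were scaled by TMM factors. Intervals are 95%. Alternatives used DESeq2 1.42.0, limma 3.58.1 on counts or on log2(FPKM + 1) and log2(FPKM + 0.1), other filters, batch, replicate number, each library left out, batch 3 alone and, added after seeing the data, gene counts without retained introns. Transcript shares and marker sums were compared by exact permutation of libraries. Transcript types came from GENCODE M21, matched for 95.6% of transcripts. The members and gene lists were chosen with earlier results of these data known. Named list genes were those that passed and the most highly counted of each list, together with further list genes named for their role after their values were seen. Scripts were tested on simulated data. Nr3c1 sequence and the values of 1 cofactor gene are not reported here.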

Additional observations from a re-analysis of the deposited data

Results flagged for a closer look

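In groups of 4 libraries, values whose gap to the nearest library took up more of the group's range than Dixon's 95% limit were singled out among 74 groups, and chance alone does so in about 1 in 20 groups. Errfi1 in BM-Treg replicate 3 had 12.7 CPM, and the next highest BM-Treg library had 9.03 CPM. Stip1 in BM-Treg replicate 4 had 136 CPM, and the next highest BM-Treg library had 91.0 CPM. Per1 in SP-Treg replicate 3 had 74.1 CPM, and the next highest SP-Treg library had 59.98 CPM. The summed B cell markers in SP-Treg replicate 2 were 87.7 CPM, and the next highest SP-Treg library had 15.0 CPM.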

How the results depend on the processing

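The Tsc22d3 log2 fold change stayed positive but did not pass with limma-trend on log2(FPKM + 1) (0.80, limma adjusted p = 0.0934) or log2(FPKM + 0.1) (0.85, 0.099), with no filter (0.83, edgeR adjusted p = 0.0539), with batch as a term (0.76, 0.284) or without retained introns (0.54, 0.308), and it ranged from 0.63 to 1.04 with a library left out. In each of these settings 1 of the 6 genes was called, and 1 to 2 with a library left out. The Sgk1 log2 fold change in batch 3 alone was 1.15. Genes called in the lists numbered 3 with batch as a term and 14 to 20 with a library left out, beside 20. The retained-intron transcript of Tsc22d3 passed with limma-voom (log2 fold change 2.30) and with no filter (2.20), and ranged from 1.97 to 2.501 with a library left out. The differences in share ranged from -18.3 to -3.92 percentage points for the processed Tsc22d3 transcript and from 10.8 to 18.8 for the retained-intron transcript with a library left out. Without SP-Treg replicate 4, and without SP-Treg replicate 3, the exact permutation p of these 2 differences, in that order, was 0.0286, the smallest possible. Causes were not tested. Genes called numbered 1172 with all libraries by edgeR, 1714 by DESeq2, 765 and 728 with the FPKM fits, 258 with batch as a term and 690 to 1048 with a library left out.

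Same-numbered libraries did not deviate together (r of -0.176 to 0.0595), so no pairing by number was seen. This check cannot exclude pairing, since the deviations of the marrow libraries also hold their batch difference. With a replicate block 948 genes were called, Tsc22d3 had a log2 fold change of 0.86 and Sgk1 of 0.91 (edgeR adjusted p = 0.0465 and 0.011). Depth limits Errfi1 most, with 94 to 289 expected counts per library, and counts of the retained-intron transcript in SP-Treg were at most 48.2.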
